A study of Mus musculus with 74 samples.

Results

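The difference between the LPS response of line 264 and that of RAW264.7 at 120 min was described gene by gene. It was computed as the change of line 264 from 0 to 120 min minus the change of RAW264.7 over the same time, on the log2 scale, so a value below 0 is a weaker rise or a stronger fall in line 264. All genes with a mean of at least 1 normalized read over the 12 libraries of the table were taken, which gave 17450 of 24851 genes. RAW264.7 is a mouse macrophage-like cell line, and 264 and 3205 are lines made from it in a study of the replacement histone H3.3 and its phosphorylation. The series holds 74 samples. The contrast rests on 4 groups of 2 libraries each, namely unedited RAW264.7 cells at 0 min (no LPS) and at 120 min of LPS, and cells of line 264 at 0 and at 120 min of LPS. All 4 groups thus share the RAW264.7 background, and all stimulated groups share the agent lipopolysaccharide (LPS), for which the labels of these lines state no dose. The series lists hypomorphic lines and H3f3a/H3f3b double knockouts made with CRISPR, without saying which of these line 264 is, or whether it is 1 clone. The labels call the source of these samples RAW264.7 but give bone marrow-derived macrophage as the tissue.

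LPS is a component of the wall of Gram-negative bacteria, and macrophages sense it through the receptor TLR4. Signalling through MAP kinases and NF-kB turns on immediate early and inflammatory genes within minutes, and a later wave follows that depends on new proteins, among them interferon beta, which acts back on the cell and induces interferon-stimulated genes. H3.3 is the histone H3 variant placed into chromatin outside DNA replication. It carries a serine at position 31 that the replication-coupled H3 proteins lack, and its phosphorylated form, H3S31ph, is known to mark genes during stimulation.

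The 8 libraries of the contrast held 27.4 M to 37.8 M reads. Macrophage markers were present in every library, with sums over 8 genes (Spi1, Csf1r, Emr1, Itgam, Cd68, Lyz2, Fcgr1 and Tyrobp) of 341729 to 394900 normalized reads in RAW264.7 and 126871 to 177051 in line 264. Most of that gap was in the lysozyme gene Lyz2, with means of 245536 in RAW264.7 and 52538 in line 264 at 0 min. Markers of B cells, fibroblasts and neutrophils summed to at most 6.11, 2.18 and 25.5 normalized reads in any of the 8 libraries, with Pax5 and Ngp at 0 in all of them. Of T and NK cell markers 2 were in the table, with sums of 104 to 245, nearly all of it from the kinase gene Lck (104 to 244, with means of 131 at 0 min and 174 at 120 min in RAW264.7 and 131 and 160 in line 264), while Cd3d reached at most 1.33. Its part in the results was not tested. The share of reads from mitochondrial genes was 0.303% to 0.520% in replicate 1 of the 4 groups and 1.199% to 1.70% in replicate 2. Its part in the results was not tested. The labels do not say whether the 2 replicates of a group were separate cultures. Each p-value is thus set against the spread of these libraries alone, and that spread may be technical. In bulk RNA, a smaller share of responding cells and less RNA per cell cannot be told apart.

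The RNA of the targeted H3.3 genes was read first. H3f3a stood at 2926 and 2055 normalized reads in RAW264.7 at 0 min and at 3109 and 2438 at 120 min, and in line 264 at 188 and 236 and then at 182 and 212. H3f3b stood at 15367 and 13623 and then at 34155 and 33056 in RAW264.7, and at 5642 and 7145 and then at 17765 and 15991 in line 264. Line 264 thus carried less RNA of both genes at each time, 11.6-fold less H3f3a at 0 min and 13.98-fold less at 120 min. The LPS response itself did not pass for a difference between the lines at either gene. The response difference was -0.27 ± 0.37 for H3f3a and 0.19 ± 0.21 for H3f3b (limma log2 value ± SE, n = 2 libraries per group, here and below).

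Of the 17450 genes, 4 (0.0229%) were called, with a limma adjusted p (Benjamini-Hochberg over all of them) below 0.05. The response was weaker in line 264 at 3 (0.0172%), the MAP kinase phosphatase gene Dusp1, the Ras-family exchange factor gene Rasgef1b and the sphingomyelin synthase gene Sgms2. It was higher at 1 (0.00573%), Iqsec1, which encodes an exchange factor for the small GTPase Arf6. At an unadjusted p below 0.05 there were 654 genes, 374 lower and 280 higher. In RAW264.7 the first 3 rose with LPS and Iqsec1 fell. In line 264 the response passed at Dusp1 alone of the 4, and it was smaller there than in RAW264.7.

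Among these, Dusp1 and Rasgef1b have a single start in the RefSeq promoter table (build GRCm38.p6), and the 250 bases before it are shown for them because each has this 1 listed start and both rose from a measurable level in RAW264.7. Capitals mark each match to TGACG, the core of the cAMP response element (CRE), on either strand. The windows are chr17:26508473-26508722 and chr5:99252928-99253177, both on the minus strand.
Dusp1: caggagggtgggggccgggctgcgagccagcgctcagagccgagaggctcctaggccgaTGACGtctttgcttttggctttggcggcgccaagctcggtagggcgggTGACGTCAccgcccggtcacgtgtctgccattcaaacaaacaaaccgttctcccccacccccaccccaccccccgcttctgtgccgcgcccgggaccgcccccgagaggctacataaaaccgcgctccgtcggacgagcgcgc
Rasgef1b: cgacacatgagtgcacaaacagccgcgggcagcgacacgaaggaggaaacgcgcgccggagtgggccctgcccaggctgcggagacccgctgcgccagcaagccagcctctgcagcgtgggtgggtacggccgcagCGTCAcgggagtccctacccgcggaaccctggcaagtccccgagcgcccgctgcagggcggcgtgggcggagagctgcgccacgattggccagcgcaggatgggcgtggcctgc
Dusp1 holds the core 3 times, from 191 to 187 and from 143 to 139 bases before the start on the gene's strand and from 140 to 136 on the other. The last pair overlaps and forms the full palindrome of the element. Rasgef1b holds it from 114 to 110 bases before the start, on the other strand. Of the 32851 promoters of this length in the table, 17.8% hold the core on either strand. Searches on both strands for the AP-1 site TGANTCA (6.75% of promoters) and the kB site (GGG, any 2 bases, then TTTCC, 1.41%) found no match in either window. The E-box CACGTG (6.02%) was found in Dusp1, from 126 to 121 bases before the start. A match in letters is a description of the window and not of a bound factor. Sgms2 has 6 listed starts and Iqsec1 has 2, and their windows are not shown. The same searches found no TGACG before any listed start of these genes. The AP-1 site was found before starts 2 and 3 of Sgms2 and the E-box before its start 5. None of the sites was found before a start of Iqsec1.

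Dusp1 (chromosome 17, 26505591 to 26508472, GRCm38) encodes the phosphatase that switches off p38 and JNK and so limits the inflammatory response. It stood at 243 and 200.3 normalized reads in RAW264.7 at 0 min and at 13141 and 12179 at 120 min. In line 264 it stood at 240.3 and 209 at 0 min and at 1037 and 763 at 120 min. The lines started from overlapping levels and were far apart after LPS, with no overlap. Its response was 5.84 ± 0.21 in RAW264.7 (57.1-fold) and 1.99 ± 0.21 in line 264 (3.96-fold), a difference of -3.85 ± 0.30 (limma adjusted p = 0.00356). At 60 min it stood at 10528 and 9890 in RAW264.7 and at 1812.5 and 2571 in line 264, so that in line 264 the level at 120 min was below that at 60 min. The difference at 60 min was -2.26 ± 0.29 (limma adjusted p = 0.0612). In line 3205, which is compared with the same RAW264.7 libraries, the difference at 120 min was -3.95 ± 0.30 (limma adjusted p = 0.0028). The Dusp1 call held without any 1 library except RAW264.7 120 min replicate 1, where the limma adjusted p was 0.0554.

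**Figure D1:**
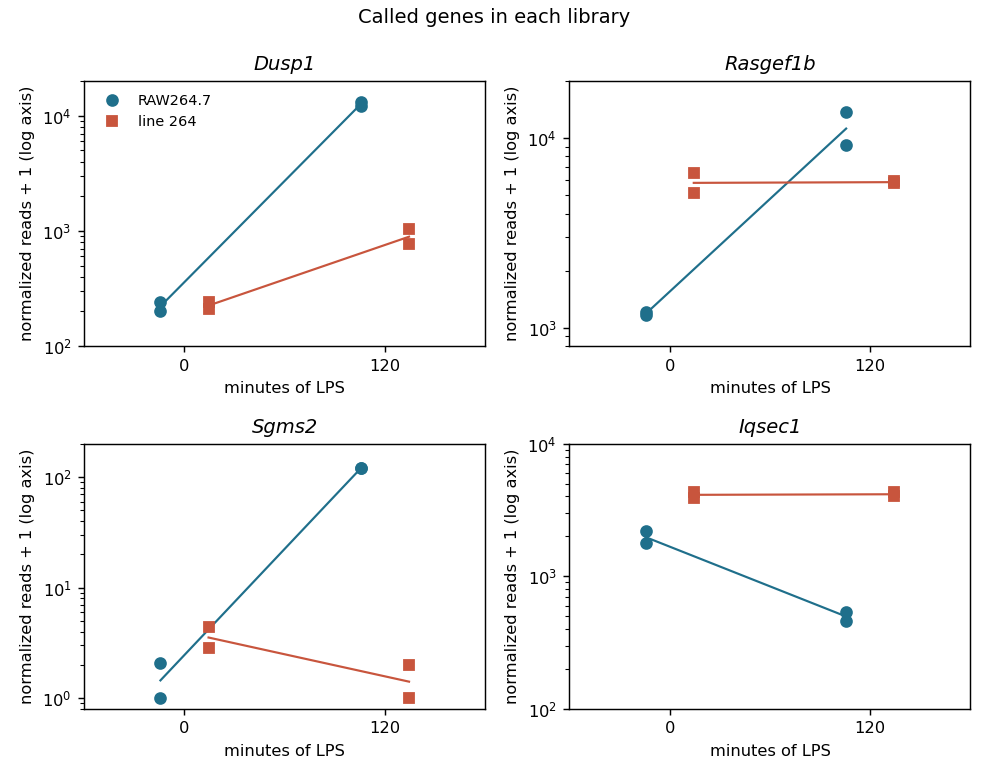
Normalized reads plus 1 (log axis, with its own range in each panel) of the 4 called genes in each of the 8 libraries, by minutes of LPS. Points are libraries (n = 2 per group), circles RAW264.7 and squares line 264, and lines join the means of the log values; Dusp1 starts level in both lines and ends at 13141 and 12179 against 1037 and 763.

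Rasgef1b (chromosome 5, 99217420 to 99252927, GRCm38) encodes an exchange factor that loads Ras-family GTPases with GTP and is known as a gene induced through Toll-like receptors. It went from 1203 and 1163 normalized reads to 13741 and 9171 in RAW264.7, and from 5150.0 and 6546 to 5778 and 5938 in line 264. Line 264 thus began 4.91-fold above RAW264.7 (2.29 ± 0.23, limma adjusted p = 0.000145) and its own response did not pass. The response was 3.25 ± 0.23 in RAW264.7 and 0.01 ± 0.23 in line 264, a difference of -3.23 ± 0.32 (limma adjusted p = 0.0157). At 60 min it stood at 21240 and 14741 in RAW264.7 and at 7098 and 10430.5 in line 264, with a difference of -3.33 ± 0.38 (limma adjusted p = 0.0351). In line 3205 the 120 min difference was -2.82 ± 0.32 (limma adjusted p = 0.0528). Without the block by replicate number described below, the Rasgef1b call held in 1 of 8 analyses that left out a library (limma adjusted p 0.0234 to 0.123).

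Sgms2 (chromosome 3, 131318985 to 131491443, GRCm38), which makes sphingomyelin at the plasma membrane, was near absent outside stimulated RAW264.7. It was counted with 1 and 0 reads in RAW264.7 at 0 min and with 89 and 95 at 120 min, and in line 264 with 2 and 4 reads and then with 1 and 0. Over the summed reads of the replicates RAW264.7 rose 213-fold (95% counting interval 37.7 to 8439), and line 264 gave a ratio of 0.206 (0.00448 to 1.70). The fitted difference of -7.70 ± 0.80 (limma adjusted p = 0.0159) depends on the value of 1 added before the log. It failed with 0.5 added (limma adjusted p = 0.0636) and without any 1 library (0.0541 to 0.147). It also failed on the 4 groups alone (limma adjusted p = 0.117) and by edgeR without the block (adjusted p = 0.331) and with it (0.0574).

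Iqsec1 (chromosome 6, 90659596 to 90988480, GRCm38) is the gene whose response was higher in line 264. It fell from 1787 and 2178 normalized reads to 459 and 535 in RAW264.7 and stayed at 3894 and 4347 and then 4314 and 4004 in line 264. The levels of the lines did not overlap at either time, with line 264 higher by 1.06 ± 0.17 on the log2 scale at 0 min and by 3.06 ± 0.17 (8.37-fold) at 120 min. The response was -1.99 ± 0.17 in RAW264.7 and 0.01 ± 0.17 in line 264, a difference of 2.004 ± 0.24 (limma adjusted p = 0.0351). At 60 min the difference was 0.19 ± 0.19, and RAW264.7 still stood at 1677 and 1787. The Iqsec1 call failed without any 1 library (limma adjusted p 0.082 to 0.309).

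The replicate numbers were taken to pair the libraries. The replicate 1 minus replicate 2 deviations of the groups correlated across genes for every pair of groups, at 0.228 to 0.480 among the 4 groups compared. The labels do not say that a replicate number marks a shared day or culture, so the pairing is an assumption drawn from these data. With the replicate number as a block in the limma fit, 45 genes (0.258%) were called, 34 lower (0.195%) and 11 higher (0.063%) in line 264, against 4 without it. All 4 genes above were among them and passed with the block without any 1 of the 8 libraries. The count of blocked calls depended on single libraries: 9 genes in all were called without RAW264.7 120 min replicate 1, 10 without RAW264.7 0 min replicate 1, 12 and 18 without replicate 2 and replicate 1 of line 264 at 0 min, 21 without RAW264.7 120 min replicate 2 and 25 without line 264 120 min replicate 2. There were 35 without RAW264.7 0 min replicate 2 and 46 without line 264 120 min replicate 1. All 45 kept their direction in each of these 8 analyses, but they were chosen on these same libraries, so this is no independent check. The genes named in the next paragraphs from this set were chosen after their values were seen. Where a difference is given with the block, its SE is from the blocked fit. The SE of a line's own response is from the fit without the block.

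Among the 34 genes lower in line 264 with the block, the median response was 1.86 in RAW264.7 (range -1.35 to 6.38) and -0.33 in line 264 (range -2.46 to 1.99). The genes were chosen by their difference in these libraries, which by itself sets the medians of the lines apart. A few of the 34 genes act in cytokine signalling or encode surface receptors, and their share was not set against that of all genes. The kinase gene Jak2, which acts below many cytokine receptors, went from 1574 and 1115 normalized reads to 7584 and 5722 in RAW264.7 and from 4528 and 4015 to 6775 and 5608 in line 264. The lines thus met at 120 min from different starts (difference -1.78 ± 0.24, limma adjusted p = 0.0215 with the block and 0.721 without it). Stat5a, the transcription factor that JAK2 activates, went from 774 and 758 to 1883 and 1553 in RAW264.7 and from 832 and 681 to 663 and 476 in line 264 (-1.58 ± 0.21, limma adjusted p = 0.0215 with the block and 0.546 without it). Tnfrsf1b, the second TNF receptor, rose in both lines but less in line 264 (response 2.49 ± 0.15 and 1.67 ± 0.15 without the block). Its difference was -0.82 ± 0.13 with the block (limma adjusted p = 0.0378), and its SE was 0.21 without the block. Il18rap, a subunit of the interleukin 18 receptor, was 18.2-fold higher in line 264 than in RAW264.7 at 0 min, at 18709 and 17812 against 1017 and 991. It then went to 14068 and 14742.5 in line 264 and to 1654 and 1865 in RAW264.7.

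A few further genes of this set encode regulators of transcription or of calcium signalling, again without a share over all genes. Jarid2, a subunit of the Polycomb complex PRC2, went from 2161 and 2459 to 6738 and 4924 in RAW264.7 and from 3203 and 3715 to 2805 and 2638 in line 264 (-1.66 ± 0.21, limma adjusted p = 0.0146 with the block and 0.0898 without it). Mitf, a factor of myeloid and pigment cells, went from 2707 and 1642 to 6206 and 3245 in RAW264.7 and from 1182 and 810 to 714 and 521 in line 264 (-1.77 ± 0.18, limma adjusted p = 0.00378 with the block). Without the block the SE of the Mitf difference was 0.56 and Mitf was not called. Replicate 1 of Mitf was above replicate 2 in all 4 groups. Rcan1, an inhibitor of calcineurin, went from 1133 and 650 to 4251 and 2588 in RAW264.7 and from 549 and 481 to 396 and 334 in line 264. Stim2, a calcium sensor of the endoplasmic reticulum, rose in RAW264.7 by 2.17 ± 0.17 and in line 264 by 0.75 ± 0.17. The chaperone gene Dnajb4 stood at 496 and 368 and then at 2357 and 1673 in RAW264.7, and at 460 and 299 and then at 462 and 389 in line 264. Hdc, which makes histamine, stood at 29.4 and 40.5 and then at 1048 and 708 in RAW264.7, against 539 and 408 and then 1423 and 625 in line 264.

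Some of the 34 were near 0 outside stimulated RAW264.7. Plek2, a pleckstrin family gene, was counted with 1 and 0 reads and then with 68 and 46 in RAW264.7, a ratio of 132 (95% counting interval 23.2 to 5246), and with 0 and 1 and then 0 and 0 reads in line 264. The oncofetal surface gene Tpbg had 3 and 0 and then 126 and 82 reads in RAW264.7, a ratio of 80.1 (27.03 to 391), and none in any of the 4 libraries of line 264. With no read in line 264, no fold can be given for Tpbg there.

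Among the 11 genes higher in line 264 with the block, the median response was -1.82 in RAW264.7 (range -5.67 to 0.27) and -0.17 in line 264 (range -1.10 to 2.60). These medians too are set apart by the choice of genes. Txnip, which binds thioredoxin and restrains glucose uptake, went from 15315 and 11368 normalized reads to 1949.8 and 2029 in RAW264.7 and from 19107 and 16041 to 9891 and 11513 in line 264. It fell 6.63-fold in RAW264.7 and its response in line 264 did not pass (-0.71 ± 0.21), a difference of 2.02 ± 0.25 (limma adjusted p = 0.0112 with the block and 0.133 without it). The Txnip difference was 2.68 ± 0.31 at 60 min (limma adjusted p = 0.0351). Cebpb, a transcription factor of the acute phase and macrophage programme, stood at 835 and 1164 and then at 1323 and 1068 in RAW264.7, and at 426 and 533 and then at 1731 and 1758 in line 264. It rose 3.66-fold in line 264 from a lower start (difference 1.60 ± 0.25, limma adjusted p = 0.0397 with the block and 0.258 without it). The kinase gene Nuak2 fell in both lines, by 2.46 ± 0.17 in RAW264.7 and by 1.10 ± 0.17 in line 264. The scaffold gene Nedd9 fell from 105 and 93.8 to 27.97 and 26.5 in RAW264.7 and stood at 1555 and 1767 and then at 1063 and 1333 in line 264. The corepressor gene Cbfa2t3 had 101 and 122 reads at 0 min and 0 and 4 at 120 min in RAW264.7, and at most 2 reads in any library of line 264. With so few reads Cbfa2t3 could not fall there, and its fitted difference (6.03 ± 0.91 with the block) depends on the value of 1 added before the log.

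**Figure D2:**
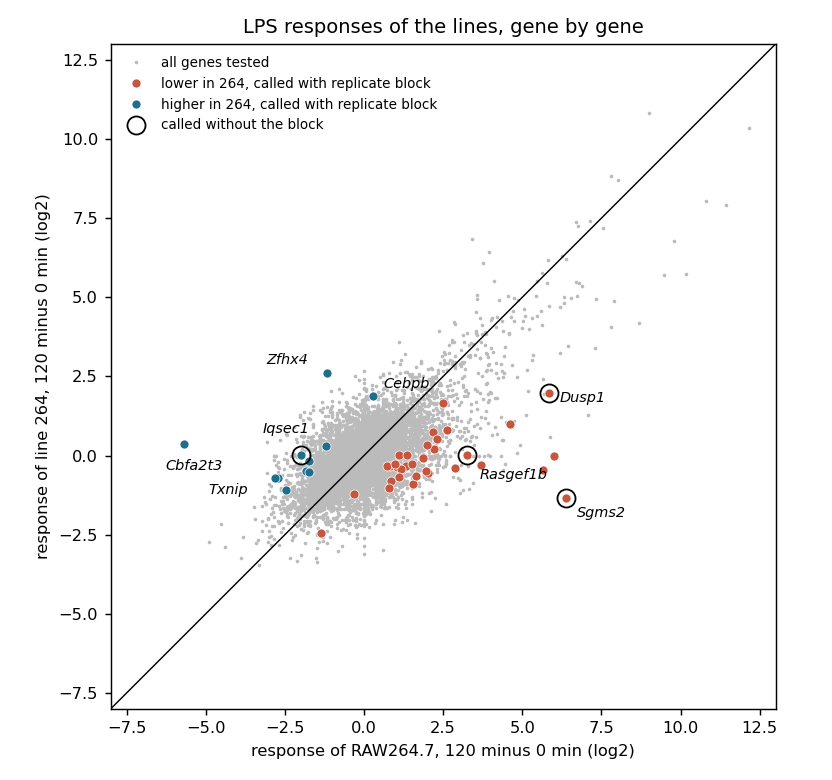
Response of line 264 against response of RAW264.7 at 120 min (both log2, 120 minus 0 min) for the 17450 genes, with the line of equal response. Filled points are the 34 genes lower and 11 higher in line 264 that were called with the replicate block. Open circles are the 4 genes called without it. Most of the 34 lie near 0 on the axis of line 264 (median -0.33) and above 0 on that of RAW264.7 (median 1.86). The filled genes were chosen by their difference in these libraries, which by itself sets the responses apart.

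The other panel genes of the inflammatory response were not called, with or without the block, and their values are given as such. Over all genes the median difference was 0.00 with quartiles of -0.23 and 0.24, and the per-library responses of the lines (each 120 min library against each 0 min library) did not overlap at 14.1% of genes, 7.34% lower and 6.80% higher in line 264. Il6, a fever cytokine, had no read in RAW264.7 at 0 min and stood at 1831 and 737 normalized reads at 120 min, at least 754-fold higher by reads, taking 3 reads over the group as the limit that 0 reads allow. In line 264 it had 1 read at 0 min and stood at 156 and 31.8 at 120 min, 229-fold higher (95% counting interval 40.5 to 9075). Il1b, the inflammasome cytokine, went from 26.1 and 12.7 to 79992 and 35316 in RAW264.7 and from 54.6 and 11.97 to 16696 and 2466 in line 264. Its levels at 120 min did not overlap between lines, but the libraries of line 264 were further apart from each other (difference -3.53 ± 1.86). Il1a stood at 9702 and 5796 after LPS in RAW264.7 and at 1207 and 430.4 in line 264, with 4 reads or fewer in each library at 0 min (-2.77 ± 0.98). The anti-inflammatory cytokine Il10 went from 6.53 and 5.79 to 374 and 340 in RAW264.7, and in line 264 from 0 reads to 2 and 7 (-3.23 ± 0.78, limma adjusted p = 0.546). Tnf went from 2060 and 2925 to 212251 and 181696 in RAW264.7 and from 1614 and 2711 to 91324 and 50509 in line 264 (-1.30 ± 0.57). At 60 min the lines had stood together for Tnf, at 96753 and 102680 against 94132 and 103585.

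The rest of the panel lay on both sides of 0. Ifnb1, the interferon beta gene, stood at 3794 and 1947 normalized reads at 120 min in RAW264.7 and at 3061 and 131 in line 264, so the replicates of line 264 disagreed more than the lines did (-3.04 ± 1.63). The growth factor gene Csf3 went from 3.27 and 5.79 to 1959 and 3811 in RAW264.7 and from 0.910 and 3.42 to 3201 and 8497 in line 264 (1.82 ± 0.90). The chemokine genes Cxcl2 (0.70 ± 0.59) and Cxcl10 (1.02 ± 0.94) and the nitric oxide synthase gene Nos2 (0.25 ± 2.11) did not pass, and neither did Ccl4 (-1.54 ± 0.88), Lif (-1.81 ± 1.32), the itaconate gene Irg1 (-0.37 ± 0.66) or the prostaglandin synthase gene Ptgs2 (-1.04 ± 0.58). Of the feedback genes, Nfkbia (-0.21 ± 0.19) had a 95% interval of -0.64 to 0.21, Tnfaip3 stood at -0.95 ± 0.28, Nfkbiz at -1.24 ± 0.29 and Socs3 at -1.21 ± 0.47. The signs of Nos2, Irg1 and Cxcl10 turned when a library was left out. Fos, a subunit of AP-1, was the panel gene furthest above 0 (2.78 ± 0.61, limma adjusted p = 0.470). It stood at 2823 and 1543 and then at 1269 and 576 in RAW264.7, and at 93.7 and 173 and then at 443 and 291 in line 264, so the lines differed mostly before LPS. Egr1 went from 1600 and 2399 to 8019 and 5687 in RAW264.7 and from 666 and 948 to 8023 and 4858 in line 264 (1.19 ± 0.44).

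**Figure D3:**
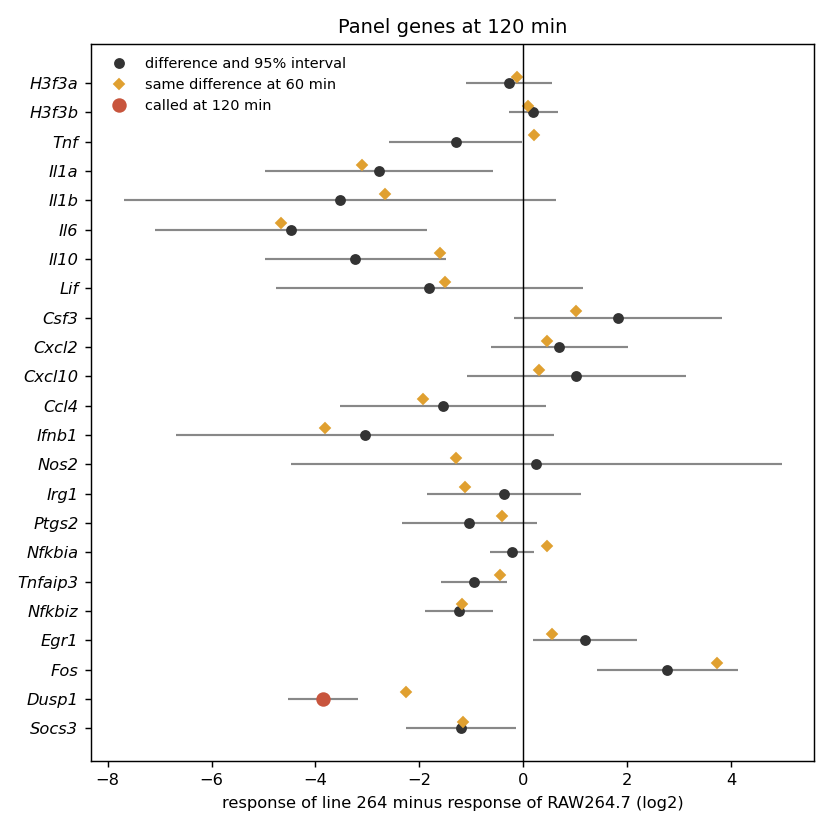
Response of line 264 minus response of RAW264.7 (log2) for the 23 panel genes at 120 min, with 95% intervals from the limma fit, and the same difference at 60 min as diamonds. Dusp1 at -3.85 is the panel gene that was called, and the intervals of Il1b, Ifnb1 and Nos2 are the widest in the panel.

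The lists around these genes are described by counts and medians, without a test of the list. Of 22 measured cytokine genes 0 were called and 14 lay below 0, with a median difference of -1.40, and 9 (40.9%) had non-overlapping responses that were lower in line 264. The median moved to -0.63 without line 264 120 min replicate 2 and to -0.74 without RAW264.7 120 min replicate 1, and was -0.92 without line 264 0 min replicate 1. Of 21 chemokine genes 0 were called and 15 lay below 0 (median -0.79), and 6 (28.6%) were lower without overlap. Cxcl9, a target of interferon, had the smallest p of the chemokines. It was counted with 0 and 1 and then 32 and 9 reads in RAW264.7, a ratio of 47.4 (95% counting interval 8.04 to 1916), and with none in line 264. Among 38 later LPS response genes for enzymes and surface proteins 26 lay below 0 (median -0.57, and -0.95 without RAW264.7 0 min replicate 1 or -0.90 without line 264 0 min replicate 1), and Rasgef1b was called. The 37 genes of NF-kB subunits, inhibitors and feedback had a median of -0.12, with 22 below 0 and 0 called. Without overlap, 13 (35.1%) were lower in line 264, against 7.34% of all genes, and 4 (10.8%) were higher, against 6.80%. The median ran from -0.26 (without line 264 0 min replicate 2) to -0.09 when a library was left out, and was -0.21 without RAW264.7 120 min replicate 2. The 38 immediate early genes had a median of 0.22, with 26 above 0 and 0 called, and the median ran from 0.04 (without RAW264.7 0 min replicate 1) to 0.51 (without replicate 2 of that group) when a library was left out. In the 16 measured MAP kinase phosphatase and Sprouty genes Dusp1 was the single call. The median was 0.03 and had no stable sign, running from -0.28 (without RAW264.7 0 min replicate 1) to 0.22 (without replicate 2 of that group). Dusp2, a nuclear relative of Dusp1, stood at -0.69 ± 0.41, and Dusp16, which acts on JNK, at 0.47 ± 0.20.

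**Figure D4:**
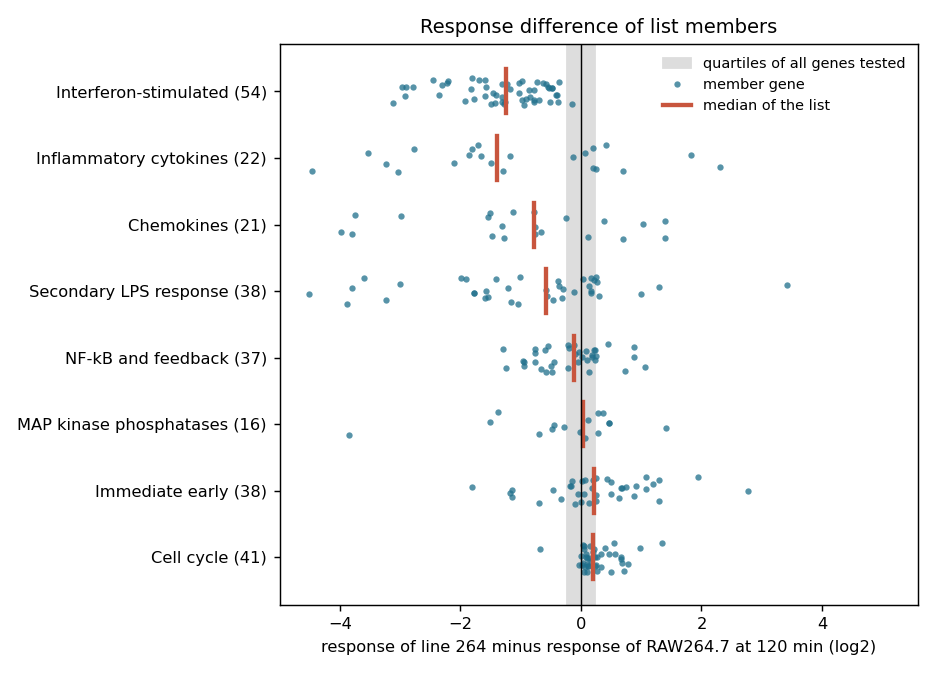
Response of line 264 minus response of RAW264.7 at 120 min (log2) for the measured members of 8 gene lists (member numbers beside the names), with the list median as a bar and the quartiles of all 17450 genes shaded. The medians of interferon-stimulated genes (-1.25) and cytokines (-1.40) lie left of the shaded band and that of the cell cycle list (0.20) within it.

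Interferon-stimulated genes, the antiviral genes that follow interferon beta, lay on 1 side of 0. The difference was below 0 at 54 of 54 measured genes (8664 of 17450 in all), with a median of -1.25 and a range of -3.12 to -0.14, and 53 lay below 0 after quantile normalization. At 11 of the 54 (20.4%) the per-library responses did not overlap and line 264 was lower, against 7.34% of all genes. At the others they overlapped. By the limma call 0 passed, and 1, the peptide transporter gene Tap1, passed with the block (-1.23 ± 0.18, limma adjusted p = 0.0331). The SE of Tap1 without the block was 0.40. The median response of the list was 1.79 in RAW264.7 and 0.37 in line 264. In RAW264.7 the response passed at 19 of the 54 (5.08% of all genes rose there), and in line 264 at 6 (2.88%). At 60 min the median difference was -0.03. The transcription factor gene Irf1 went from 738 and 731 normalized reads to 10458 and 7006 in RAW264.7 and from 701 and 490.0 to 2099 and 364 in line 264 (-2.96 ± 0.92). Mx2, a dynamin-like antiviral GTPase, went from 306 and 306 to 7932 and 4808 in RAW264.7 and from 333 and 193 to 2332 and 148 in line 264 (-3.12 ± 1.48). Tap1 stood at 1461 and 1315 and then at 3395 and 2165 in RAW264.7, and at 2088 and 1562 and then at 1893 and 1191 in line 264. Tor3a had the smallest p of the list (-0.78 ± 0.24, limma adjusted p = 0.99).

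The replicates of line 264 differed from each other over this list. At 120 min replicate 1 stood above replicate 2 at 54 of the 54 genes, by a median of 1.64, at 0 min at 53 by 0.78, and in RAW264.7 at 120 min at 52 by 0.71. The median level (log2 of the value plus 1) was 10.3 and 9.58 in line 264 at 0 min and 11.1 and 9.62 at 120 min, against 9.97 and 9.88 and then 12.2 and 11.8 in RAW264.7. Replicate 2 of line 264 thus had about the same level before and after LPS. Within the pairs of the same replicate number the median difference was -1.23 in replicate 1 and -1.23 in replicate 2. That equal numbers mark pairs is an assumption. The median difference was -0.46 without line 264 120 min replicate 2 and -2.01 without replicate 1 of that group. It was -0.82 without line 264 0 min replicate 1, and the number of genes below 0 ran from 43 to 54 when a library was left out. Over the 16 choices of 1 library per group, the median difference had a standard deviation of 0.98. Ifnb1 itself was lower in replicate 2 of line 264 (131 against 3061 normalized reads at 120 min). Its part in the values of the list was not tested.

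**Figure D5:**
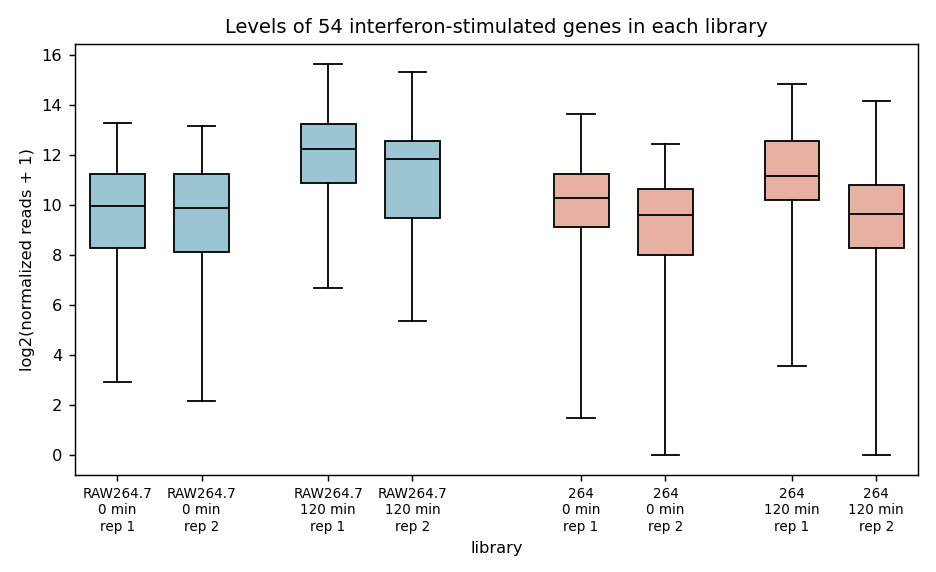
Levels of the 54 interferon-stimulated genes, as log2(normalized reads + 1), in each of the 8 libraries (n = 2 per group). Boxes give quartiles and median and whiskers the range over genes; the medians are 12.2 and 11.8 in RAW264.7 at 120 min and 11.1 and 9.62 in line 264.

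Cell cycle genes lay mostly above 0, with small values. The difference was above 0 at 38 of 41 genes (8756 of 17450 in all), with a median of 0.20 and 0 calls. At 8 of the 41 (19.5%) the responses of the lines did not overlap and line 264 was higher, against 6.80% of all genes. The median response was -0.37 in RAW264.7 and -0.17 in line 264. E2f2, an activator of S phase genes, had the smallest p (0.72 ± 0.25), and went from 2090.3 and 2054 normalized reads to 330.3 and 446 in RAW264.7 and from 1648 and 1410.0 to 446 and 483 in line 264. Without RAW264.7 120 min replicate 1 the median was 0.07 with 28 above 0, and without line 264 120 min replicate 2 it was 0.09 with 29 above 0, while it was 0.32 without the other replicate of either group, with 38 and 35 above 0.

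Genes that LPS induces in primary bone marrow-derived macrophages were taken as a further list. Of 187 genes with a positive log2 fold change in the authors' deposited table, 178 were measured here. Their median response was 2.64 in RAW264.7 and 2.15 in line 264, and the median difference was -0.33 (-0.20 without line 264 120 min replicate 2), with 112 below 0. The median difference of these genes at 60 min was -0.47. Of the 178 genes 2 were called lower at 120 min, Dusp1 and Rasgef1b, and 4 with the block. Over all 17450 genes the shares called lower were 0.0172% and 0.195% with the block. H3S31ph signal over the gene was measured in primary macrophages with 1 library at 0 and 1 at 60 min. It went from 6.43 to 39.7 at Dusp1 (6.18-fold) and from 3.29 to 70.7 at Rasgef1b (21.5-fold). When the 178 genes were ordered by the H3S31ph ratio and divided in 3, the median response difference was -0.45 at ratios of 0.904 to 2.60 (60 genes), -0.05 at 2.64 to 5.78 (59 genes) and -0.48 at 5.81 to 29.8 (59 genes). Across these genes Spearman's rho was -0.06 (178 genes, all from the same libraries). Below 0 lay 37 of the 60 genes of lowest ratio, 32 of the middle 59 and 43 of the highest 59. In falling order of ratio, Cxcl2 (29.8) stood at 0.70 ± 0.59, Tnfaip3 (28.05) at -0.95 ± 0.28 and Nfkbia (24.8) at -0.21 ± 0.19. Tnf (23.8) followed at -1.30, Il1a (22.4) at -2.77, Rasgef1b (21.5) at -3.23 and Irf1 (21.3) at -2.96. At low ratios, Il6 (1.45) stood at -4.46 ± 1.17 and Fos (2.45) at 2.78.

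Of 4 dendritic cell markers in the table (Flt3, Zbtb46, Clec9a and Xcr1), Zbtb46 and Xcr1 moved with the contrast. The sum of the 4 was 82.2 to 94.7 normalized reads in RAW264.7 at 0 min and 269 to 353 at 120 min. In line 264 it was 45.3 to 93.7 and 67.3 to 128. This came from Zbtb46 and the chemokine receptor gene Xcr1, while Flt3 stayed at or below 1.96 and Clec9a at or below 2.66 in every library. In a wider list of dendritic cell markers 4 of 6 measured genes lay below 0 (median -0.23, range -2.39 to 2.18) and 0 were called. That median ran from -0.71 to 0.006 when a library was left out. Xcr1 was counted with 6 and 7 and then 133 and 104 reads in RAW264.7, a ratio of 21.1 (95% counting interval 12.1 to 40.1), and with 9 and 10 and then 33 and 26 in line 264, a ratio of 3.84 (2.25 to 6.81). Its part in the results was not tested.

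The same contrast at 60 min and the same contrast in line 3205 share libraries with the one described here, so the values are set side by side and not correlated. At 60 min 3 of 17301 genes (0.0173%) were called by limma, 2 lower (0.0116%) and 1 higher (0.00578%) in line 264. Rasgef1b and Txnip have been given above, and the third was Bhlhe40, a basic helix-loop-helix repressor, at -2.10 ± 0.23 at 60 min (limma adjusted p = 0.0351) and at -0.77 ± 0.68 at 120 min. In line 3205 at 120 min 1 gene (0.00573%) was called, Dusp1, and 0 were higher (0%). Dusp1 stood there at 1043 and 752 normalized reads at 0 min and at 3629 and 2948 at 120 min, so line 3205 began above RAW264.7 and line 264 did not. Rasgef1b and Iqsec1 had differences of -2.82 ± 0.32 and 1.69 ± 0.24 in line 3205 and were not called there (limma adjusted p = 0.0528 and 0.101). Sgms2, with 0 reads in line 3205, stood at -6.38 ± 0.80 (limma adjusted p = 0.062). All of the 34 lower and 11 higher genes of the blocked fit had the same sign in line 3205. Interferon-stimulated genes had a median difference of -1.54 there. Both contrasts use the same RAW264.7 libraries, so this is no independent check. Within each line on its own, 10.6% of genes changed with LPS in RAW264.7 (5.08% rose and 5.52% fell) and 5.43% in line 264 (2.88% rose and 2.55% fell). These shares are calls within a line and do not test a difference between the lines.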

How the data were processed

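RNA was read in 12 libraries of the 120 min table (RAW264.7, line 264 and line 3205 at 0 and 120 min, 2 each), and a second table gave 60 min. Per the submitters' processing notes, reads were handled with Trim Galore 0.5.0, STAR 2.4.2, featureCounts of Subread 1.4.6 and DESeq2 on mm10. The deposited gene values are a signal, namely read counts that the authors divided by 1 size factor per library: 100% of values came out as whole reads within 0.1 read. The deposited log2 fold changes and p-values of the authors were not used as results, except that a positive deposited log2 fold change in primary macrophages chose 1 gene list. The deposited ChIP signal per gene has 1 library per target and time, and its unit is not stated.

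The contrast was fitted with limma 3.58.1 (R 4.3.3) with an intensity trend on log2(value + 1), with 6 groups and Benjamini-Hochberg adjustment over genes with a mean of at least 1, and called at an adjusted p below 0.05. The 3205 libraries entered the shared spread only. Fold changes on this scale understate those of low genes. edgeR 4.0.16 on the recovered reads called 2 genes, and DESeq2 1.42.0 was a further alternative. Counting intervals are exact at 95%, and these and limits at 0 (3 reads) cover counting error only. The 8 libraries of the contrast held 27.4 M to 37.8 M reads. Replicate numbers come from the labels. The replicate 1 minus replicate 2 deviations of the 4 groups correlated across genes at 0.228 to 0.480 (6 pairs of groups), so the numbers were taken to pair the libraries. The scripts were tested on simulated data.

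Named genes were the calls with a mean of at least 50 in the highest group and non-overlapping responses (at most 10 in each direction, no predicted genes), a panel of LPS response genes, and list members that were called or, in a list with none, the member of smallest p. Others were chosen after their values were seen. The contrast and the lists were chosen with earlier results of these data known.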

Additional observations from a re-analysis of the deposited data

Results flagged for a closer look

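In 4 genes the same LPS contrast differed between the lines by the limma test of the difference itself. The difference (line 264 minus RAW264.7, log2) was -3.85 at Dusp1, -3.23 at Rasgef1b, -7.70 at Sgms2 and 2.004 at Iqsec1. Dusp1 rose in both lines, by 5.84 in RAW264.7 and by 1.99 in line 264, while the responses of Rasgef1b and Iqsec1 in line 264 were both 0.01. No group holds enough libraries to look for a single library far from the others.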

How the results depend on the processing

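With the replicate block, which treats equal replicate numbers as pairs, 45 genes were called, 34 lower and 11 higher. By edgeR with the replicate block 42 were called (29 lower, 13 higher). DESeq2, which gave an adjusted p at 13052 genes, called 53 (31 lower, 22 higher), and limma with 5 added before the log called 14 (12 lower, 2 higher). edgeR without the block called 2 genes and so did limma on the 4 groups alone, with 0 higher in each case. The count of higher genes was also 0 without the intensity trend, with a minimum difference of 1.5-fold and after quantile normalization. Leaving out a library, the calls ranged from 0 to 2, lower calls from 0 to 2 and higher calls from 0 to 0. It was 0 without RAW264.7 120 min replicate 1, with 521 genes at an unadjusted p below 0.05. All 4 called genes were also called with other scaling by TMM, with no filter, with a mean of at least 10, with 5 added, with the block and by DESeq2. Sgms2 was lost with 0.5 added, on the 4 groups alone and by edgeR with and without the block. Iqsec1 was lost without the trend, on the 4 groups alone, with the minimum difference, after quantile normalization and by edgeR without the block, and Rasgef1b without the trend.

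Leaving out a library, the list medians ranged from -0.43 to -0.20 for genes induced in primary macrophages, from -2.01 to -0.46 for interferon-stimulated genes, from -1.51 to -0.63 for cytokines, from -1.16 to -0.56 for chemokines and from -0.95 to -0.51 for the later LPS genes. Of the 53 named genes, for which the alternatives were run, the direction turned at 4. Nos2 was -0.0794 by edgeR with the replicate block and -0.0117 by DESeq2, and ranged from -1.42 to 1.92 when a library was left out. Irg1 ranged from -0.93 to 0.19, Cxcl10 from -0.18 to 2.23 and H2-Eb1 from -3.03 to 0.77. The cause was not tested. Depth limits the genes of low level most: the median SE was 1.05 over the 4363 genes of lowest level and 0.24 over the 4363 of highest.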

Other observations

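Further genes and lists were read as values. Zfhx4, a zinc finger and homeobox gene, stood at 3743 and 5429 normalized reads in RAW264.7 at 0 min and at 1545 and 2562 at 120 min. In line 264 it had 0 and 2 reads and then 6 and 11. The limma adjusted p of its difference was 0.00241 with the block and 0.369 without it, and the fitted value depends on the value added before the log. Lcn2, an iron-binding protein gene of the acute phase, went from 6.53 and 0 to 38.6 and 20.2 in RAW264.7 and from 3.64 and 5.13 to 681 and 536 in line 264 (3.43 ± 1.16, not called). Both genes were chosen after their values were seen.

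Of 319 measured Zfp zinc finger genes 198 lay above 0, with a median of 0.11 and 0 called, and Zfp472 had the smallest p (0.91 ± 0.21, limma adjusted p = 0.487). Leaving out a library, the Zfp median ran from 0.04 (without line 264 120 min replicate 1) to 0.18 (without replicate 2 of that group) and the number above 0 from 175 to 230, and the median was 0.07 without RAW264.7 0 min replicate 1. The 78 cytosolic ribosomal protein genes had a median of -0.02, the 38 macrophage identity genes 0.07, and the 25 genes of H3.3, its chaperones and H3K36 factors 0.08. When a library was left out these medians ran from -0.07 to 0.00, from 0.09 to 0.25 and from 0.01 to 0.14. Of 12 osteoclast genes 9 lay below 0 (median -0.47), with the fusion receptor gene Dcstamp at -2.13 ± 0.74. The osteoclast median ran from -0.96 (without RAW264.7 120 min replicate 2) to -0.18 (without replicate 1 of that group), and was -0.74 and -0.28 without replicates 1 and 2 of RAW264.7 at 0 min. The 12 mitochondrially encoded genes had a median of 0.71, which ranged from -0.02 to 1.71 when a library was left out.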
